A study of Rattus norvegicus with 2 samples.

Results

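The genes of heme synthesis were examined in the spleen of a rat given cocaine and of a control rat. The set was fixed by gene symbol and holds 7 enzymes of the pathway, in the order of their steps (Alas2, Alad, Uros, Urod, Cpox, Ppox and Fech), and 3 transport proteins of the inner mitochondrial membrane (Slc25a37, Slc25a38 and Abcb10). All 10 were measured, out of 15037 genes with a name, and each had a single transcript cluster, the set of short probes that reports on the transcripts of a gene. The step between Alad and Uros is not analysed here. The members were chosen with earlier results of these data known, so their shared direction is not an independent finding. The study itself lists Alas2, Urod, Fech and Abcb10 among its most lowered genes. The rats were male Sprague-Dawley animals, 6 weeks old at the start. The cocaine rat received 50 mg/kg intraperitoneally once a day for 7 days, and both spleens were taken 24 h after the last injection. The control rat is titled as not stimulated, although its treatment label repeats that of the cocaine rat, and the methods of the study describe control rats as injected with saline. Its title set it as the control. Whole-spleen total RNA of each rat was hybridized to 1 Clariom S array.

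Heme is made from glycine and succinyl-CoA in a chain of reactions that starts in mitochondria, passes through the cytosol and ends in mitochondria, where iron is placed into the porphyrin ring. Every cell makes some heme for its cytochromes, while developing red cells make most of the heme of the body, for hemoglobin, and use an enzyme of their own, ALAS2, for the first step. In rodents the red pulp of the spleen is, beside the bone marrow, a place where red cells are formed, and its macrophages break down the heme of old red cells.

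The values are log2 signals as deposited, and every difference is the signal of the cocaine rat minus that of the control rat, so that -1 is a 2-fold lower signal. Each group is 1 array without a replicate. Errors, tests and p-values are therefore not given, and the precision of each value is limited by the number of arrays. Probes differ in how strongly they bind, so signals are compared between the rats within a gene and not between genes. The 23 background features of the array reached 7.76 on both arrays, and a signal under this value was treated as not told apart from background. The median signal of all transcript clusters was 6.97 on both arrays. The markers of B cells, T cells and macrophages that were measured lay above the background features on both arrays. Their signals were between 8.74 and 16.20 for 5 B cell and 8 T cell genes and between 8.82 and 15.35 for 7 macrophage genes. Other cell types had markers with both signals within background. These were 1 of 6 NK cell, 3 of 6 neutrophil, 2 of 4 platelet, 1 of 6 smooth muscle and 1 of 6 endothelial genes. Of 8 genes of pancreas and liver, 7 lay within the background features on both arrays. The other was Ttr, with signals of 6.12 in the control rat, within background, and 8.57 in the cocaine rat. Its difference of 2.44 was the highest of all 15037 named genes, and at least 1.75-fold remained with the highest background feature as a floor. Whether tissue from outside the spleen had a part in it was not tested.

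All 10 genes had lower signals in the cocaine rat, each by more than 2-fold. Over all 15037 named genes, 4.97% were at least 2-fold lower and 2.28% at least 2-fold higher. The median difference of the 10 genes was -3.98, or 15.8-fold lower, against 0.04 for all named genes. With the highest background feature as a floor for every signal, all 10 were still past 2-fold, against 3.68% of all named genes. At 4-fold, 9 of the 10 were lower, against 1.64% of all named genes, and 5 of the 10 were at least 16-fold lower, among 40 such genes on the array. Genes in the same range of control signal were counted as well, since a weak signal has little room to fall. Among the 4230 named genes whose control signal lay in the range of the 10 genes (9.58 to 16.86), 10.4% were at least 2-fold lower and the median difference was -0.04. This range is wide, and genes were not matched to the 10 within it, whose median control signal was 13.48. In a whole organ, fewer cells of a type and less RNA per cell cannot be told apart.

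**Figure D1:**
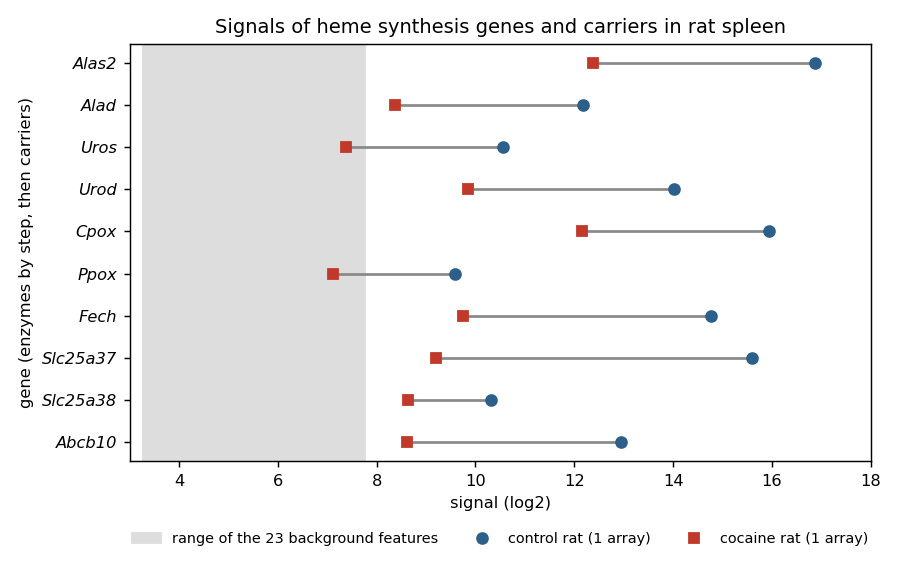
Log2 signal (horizontal axis) of each of the 10 genes (vertical axis, enzymes by step and then the carriers) on the control array (circles) and the cocaine array (squares), with the range of the 23 background features shaded. Every square lies to the left of its circle, and the squares of Uros (7.39) and Ppox (7.12) fall in the shaded range.

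The first step is carried out in mitochondria by Alas2, the erythroid 5-aminolevulinate synthase, which joins glycine and succinyl-CoA and sets the rate of the pathway in red cell precursors. Its signal was 16.86 in the control rat and 12.38 in the cocaine rat, a difference of -4.49. The cocaine rat thus had 4.46% of the control signal, still 4.62 above the highest background feature on the log2 scale. The highest background feature therefore did not limit this difference. The ubiquitous enzyme for the same reaction, Alas1, had signals of 9.69 and 9.26, a difference of -0.42 that is within 2-fold.

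The next steps take place in the cytosol. Alad, which joins molecules of 5-aminolevulinate into porphobilinogen, had a signal of 12.17 in the control rat and 8.37 in the cocaine rat (-3.80, 13.96-fold lower). Uros, which closes the ring of uroporphyrinogen III, had signals of 10.56 and 7.39 (-3.17). The second of these lies under the highest background feature, and raising it to that feature leaves at least 6.98-fold. Urod, which turns uroporphyrinogen into coproporphyrinogen by removing carboxyl groups, had signals of 14.02 and 9.86 (-4.17, 17.96-fold lower). The 3 cytosolic enzymes thus spanned differences from -4.17 to -3.17, with the smallest one in the gene whose signal reached background.

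The last steps return to mitochondria. Cpox, in the space between the mitochondrial membranes, makes protoporphyrinogen, and had a signal of 15.93 in the control rat and 12.15 in the cocaine rat (-3.78, 13.8-fold lower). Ppox, which oxidizes protoporphyrinogen to protoporphyrin, had signals of 9.58 and 7.12 (-2.46). Its signal in the cocaine rat was again under the highest background feature, which leaves at least 3.54-fold. Fech, the ferrochelatase that inserts iron, had signals of 14.77 and 9.75, and its difference of -5.02 (32.5-fold lower) was the largest among the 7 enzymes. The 4 mitochondrial enzymes, Alas2 included, had differences between -5.02 and -2.46 with a median of -4.13, and the 3 cytosolic ones had a median of -3.80. These ranges overlap, and the differences did not order the enzymes by compartment or by step.

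The 3 transport proteins held both the largest and the smallest difference of the set. Slc25a37 encodes mitoferrin-1, which brings iron into the mitochondria of red cell precursors. Its signal was 15.59 in the control rat and 9.21 in the cocaine rat, a difference of -6.38 (83.4-fold lower), and only 5 named genes on the array had a lower one. Abcb10, an ABC transporter that binds mitoferrin-1 in mouse erythroid cells, had signals of 12.95 and 8.61 (-4.34, 20.3-fold lower). Slc25a38, which carries glycine for the first step, had signals of 10.31 and 8.63, a difference of -1.67 (3.19-fold lower). The cocaine rat retained 1.20% of the control signal for Slc25a37 and 31.3% for Slc25a38, with all other members between these values.

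Ordered by size, the differences ran from Slc25a37 through Fech, Alas2, Abcb10, Urod, Alad, Cpox, Uros and Ppox to Slc25a38. The widest gap was 1.36, between Slc25a37 and Fech. Alad and Cpox were only 0.02 apart, and Alas2 and Abcb10 0.14. With no replicate there is no spread against which to say which neighbours differ. Uros and Ppox have signals within background in the cocaine rat, so their places in the order are not settled. Among all named genes, counted from the lowest difference, Slc25a37 stood at place 6, Fech at 19, Alas2 at 25 and Slc25a38 at 340. The 1153 features that the array marks as negative controls had a wide range of signals. In the cocaine rat 614 of them exceeded the signal of Uros, 269 that of Slc25a37 and 50 that of Alas2. Their median on this array was 7.55, above the 6.97 of all transcript clusters. Whether they measure background alone was not tested. Their 95th percentile was 12.18 on the cocaine array and 11.62 on the control array. The cocaine signals of 9 genes, all but Alas2, and the control signals of Uros, Ppox and Slc25a38 were under these values. With 12.18 as a floor for both arrays, an alternative chosen after seeing the data, 5 of the 10 genes were still at least 2-fold lower, against 0.785% of all named genes. They were Alas2 (-4.49), Cpox (-3.75), Slc25a37 (-3.41), Fech (-2.59) and Urod (-1.84). Abcb10 was left with -0.76, and Alad, Uros, Ppox and Slc25a38 with no difference. This floor also lies above every signal of the 8 T cell markers (at most 12.11), which were above the background features. It thus also hides genes with signals above those features. The size of the fall of Slc25a37 and the order of the genes depend on where the floor is set.

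**Figure D2:**
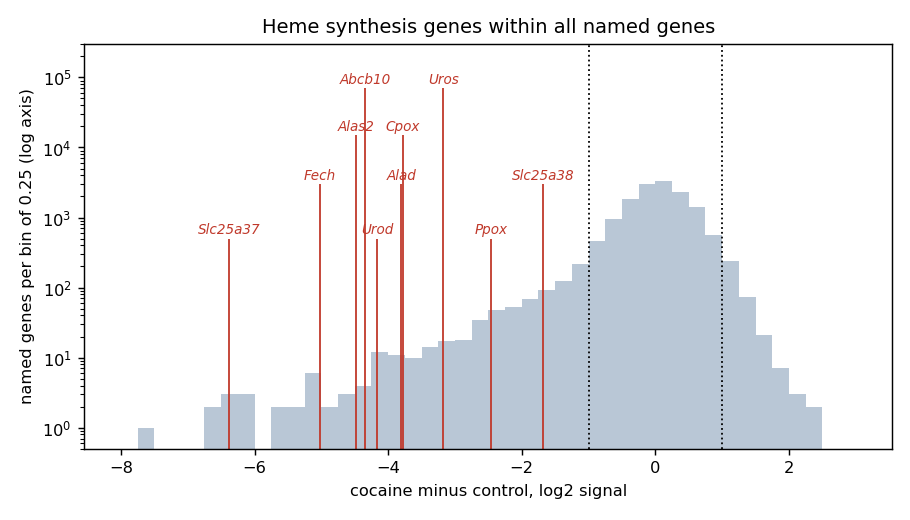
Number of named genes (vertical axis, log scale) per bin of 0.25 of the difference in log2 signal, cocaine minus control (horizontal axis), with a line for each of the 10 genes and dotted lines at 2-fold. The 10 lines stand between -6.38 and -1.67, left of the main body of the 15037 genes, whose median is 0.04.

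**Figure D3:**
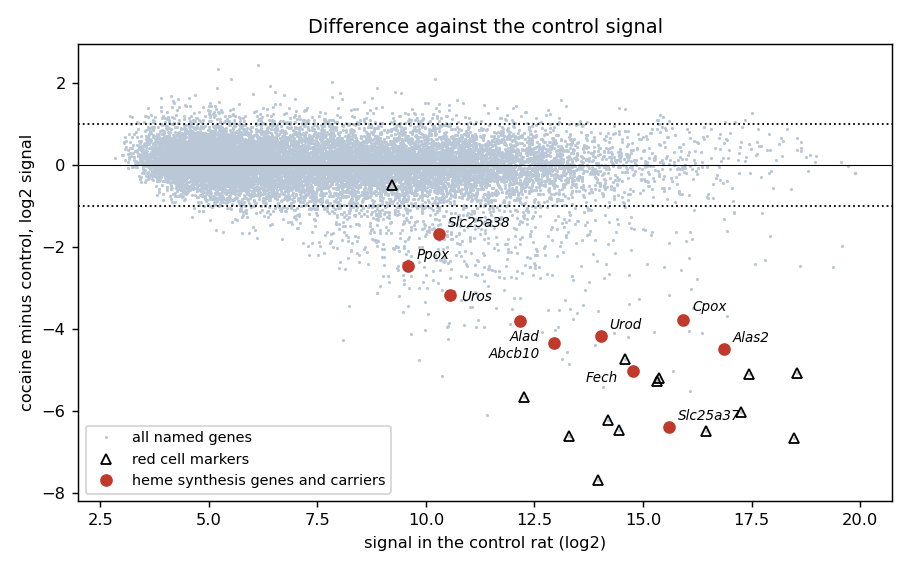
Difference in log2 signal, cocaine minus control (vertical axis), against the log2 signal in the control rat (horizontal axis) for all named genes (dots), 14 red cell markers (triangles) and the 10 genes (circles), with dotted lines at 2-fold. The control signal enters both axes, and the small differences of Ppox (-2.46) and Slc25a38 (-1.67) belong to genes with control signals near 10.

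The genes of red cell precursors are known to be switched on by the transcription factors GATA1, KLF1 and TAL1. Promoter sequences were taken from RefSeq (build GRCr8), from 250 bases before to 50 bases after the annotated start of the gene. They were found for 8 of the 10 genes, all but Cpox and Slc25a37. GATA motifs were searched on both strands as AGATAA, with T also allowed as the first base and G as the last, and occurred in 2 of the 8, Alas2 and Fech, against 29.9% of 27457 promoters of the same length and 24.7% of the 12435 promoters of named genes on the array. They are printed because they are the enzymes of the first and the last step and those with the largest differences among the enzymes. Slc25a38 is printed beside them as the gene with the smallest difference. Like Slc25a38, Abcb10 (-4.34), Urod (-4.17), Alad (-3.80), Uros (-3.17) and Ppox (-2.46) had no GATA motif in this stretch. The windows are chrX:22895200-22895499, plus strand for Alas2, chr18:60248476-60248775, minus strand for Fech and chr8:128712930-128713229, plus strand for Slc25a38. Each is written 5′ to 3′ along the gene, with GATA motifs in capitals.
Alas2: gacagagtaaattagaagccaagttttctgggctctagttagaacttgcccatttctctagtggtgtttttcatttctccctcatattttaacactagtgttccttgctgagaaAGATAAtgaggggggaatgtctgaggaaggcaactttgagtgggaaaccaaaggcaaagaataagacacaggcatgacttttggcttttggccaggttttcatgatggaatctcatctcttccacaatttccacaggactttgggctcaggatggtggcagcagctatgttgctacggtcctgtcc
Fech: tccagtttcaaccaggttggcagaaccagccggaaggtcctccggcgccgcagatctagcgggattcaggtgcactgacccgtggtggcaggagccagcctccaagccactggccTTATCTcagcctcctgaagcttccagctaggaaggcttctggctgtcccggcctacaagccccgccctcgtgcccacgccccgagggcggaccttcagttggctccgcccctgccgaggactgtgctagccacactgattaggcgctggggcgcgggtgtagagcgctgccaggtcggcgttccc
Slc25a38: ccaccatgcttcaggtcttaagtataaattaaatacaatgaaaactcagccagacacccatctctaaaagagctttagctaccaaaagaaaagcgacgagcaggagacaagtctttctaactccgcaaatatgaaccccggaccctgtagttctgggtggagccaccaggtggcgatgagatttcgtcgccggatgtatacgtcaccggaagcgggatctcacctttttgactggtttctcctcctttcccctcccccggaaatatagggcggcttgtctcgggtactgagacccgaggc
The GATA motif began 136 bases before the annotated start of Alas2 and, on the opposite strand, 135 bases before that of Fech. In the Alas2 window the bases just before this start, ttccacag, read like the end of an intron. Whether the window holds the promoter of Alas2 was not tested, and its motif may lie within the gene. The motif of KLF1, searched as CCNCNCCC on both strands, which also covers many GC boxes, was found in 7 of the 8 promoters (all but Alas2), against 47.2% of all promoters and 57.9% of those of named genes. The E-box CAGNTG, of which TAL1 binds a form, was found in 3 of the 8 (Urod, Fech and Slc25a38), against 49.8% and 47.3%. A match is a run of letters and not a site shown to be bound, and sequences outside these windows were not searched.

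Close relatives of the members had small or moderate differences. Slc25a28, mitoferrin-2, which serves the same purpose as mitoferrin-1 in other cells, had signals of 9.31 in the control rat and 9.29 in the cocaine rat, a difference of -0.02. Abcb6, a porphyrin transporter, had signals of 9.60 and 7.85 (-1.75, 3.36-fold lower). Abcb8 (-0.51) had both signals within the background features. In the wider family of 36 other mitochondrial solute carriers, 2 genes had signals at least 2-fold lower and 0 at least 2-fold higher, and the median was -0.05. The 2 were Slc25a21, a carrier of oxodicarboxylates (-2.87, at least 5.77-fold), and Slc25a39 (-1.92), which carries glutathione into mitochondria, and Slc25a51, the NAD carrier, followed at -0.89. In 16 of the 36 both signals were within the background features. Of 7 other ABC transporters of subfamily B, 3 were at least 2-fold lower: Abcb4 (-2.32), which moves phospholipids, Abcb6, and Abcb9 (-1.32), whose signals were both within background.

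The nuclear genes of oxidative phosphorylation, whose products fill the same membrane as the carriers, were set beside them. In whole-spleen RNA their signals are summed over all cell types, so they do not show the mitochondria of any single type. Of 69 genes, none was at least 2-fold lower and 1 was at least 2-fold higher, and the median difference was 0.11. That gene was Ndufab1, the mitochondrial acyl carrier protein (1.25). Atp5f1e, a small subunit of ATP synthase, had a difference of 0.98, and the complex I subunit Ndufb6 had one of 0.84 from a control signal within background.

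Genes that supply or accompany heme synthesis were lower in part. In a list of 14 genes for precursor supply and mitochondrial handling, 4 were at least 2-fold lower and 1 was higher, with a median of -0.12. Tmem14c, which is needed in mouse erythroid cells to bring protoporphyrinogen into the mitochondrial matrix, had signals of 15.17 in the control rat and 13.46 in the cocaine rat (-1.71). Fam210b, a mitochondrial protein of erythroid cells, had a difference of -1.82, with a signal in the cocaine rat (6.98) within background and at least 2.06-fold left. Slc25a39 is also in this list, and the fourth was Atp5if1, the inhibitor of ATP synthase (-1.33), named after its value was seen. Against these, the ferredoxin Fdx1, an electron carrier, was 2.10-fold higher (1.07). The enzymes that supply succinyl-CoA, Sucla2 (-0.18), Suclg1 (0.20) and Suclg2 (-0.05), and the glycine-forming Shmt2 (0.27), also named after their values were seen, were within 2-fold.

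Iron-sulfur clusters are made in mitochondria from the same iron, and ferrochelatase carries one. Of 14 genes of their assembly, 4 had signals at least 2-fold lower and 0 at least 2-fold higher, and the median was -0.48. Glrx5, a glutaredoxin that hands on newly made clusters, had signals of 13.66 in the control rat and 10.61 in the cocaine rat (-3.05, 8.27-fold lower). Isca1, which acts late in the assembly, had a difference of -1.64, and Bola3 one of -1.28. The fourth was the scaffold Iscu (-1.03), named after its value was seen, at the edge of 2-fold. The cysteine desulfurase Nfs1, which starts the process, had a difference of -0.60 and was chosen in the same way.

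**Figure D4:**
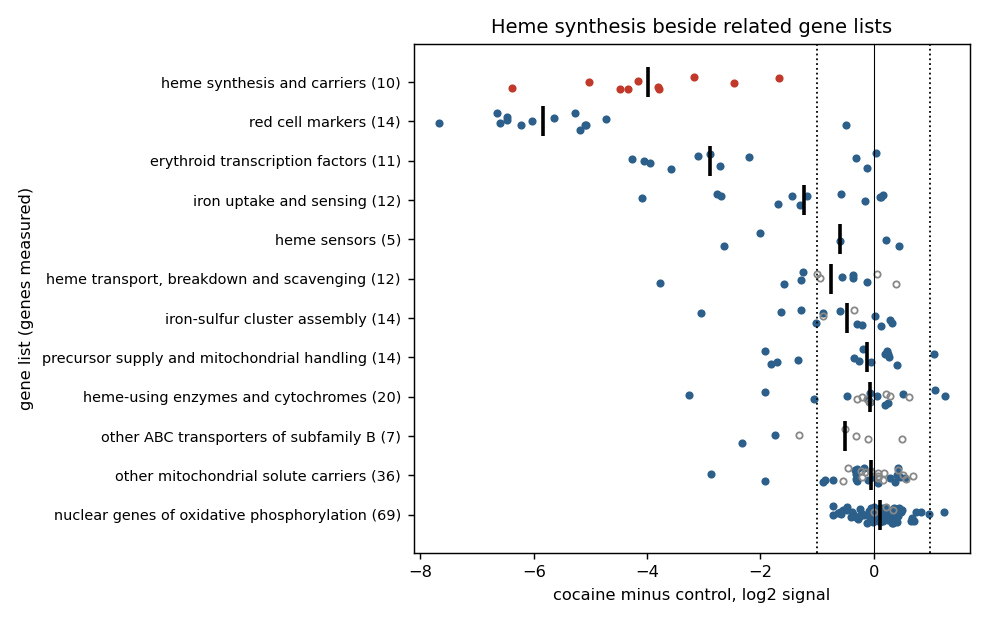
Difference in log2 signal, cocaine minus control (horizontal axis), for the genes of 12 lists (vertical axis, with the number measured). Each point is a gene, open grey points have both signals within the background features, thick bars are medians and dotted lines mark 2-fold. The medians run from -5.83 for the red cell markers and -3.98 for the 10 genes to 0.11 for oxidative phosphorylation.

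The fate of heme after its synthesis gave a divided result. Of 12 genes of heme transport, breakdown and scavenging, 4 had signals at least 2-fold lower and 0 at least 2-fold higher, and the median was -0.76. The biliverdin reductase Blvrb, which is abundant in red cells, had signals of 11.20 in the control rat and 7.43 in the cocaine rat (-3.77). The latter was within background, and at least 10.9-fold remained. Hebp1, a heme-binding protein, had a difference of -1.58, the exporter Abcg2 one of -1.29 (at least 2.04-fold), and the fourth, Blvra (-1.25), was named after its value was seen. Heme oxygenase Hmox1, with which macrophages open the heme ring, had signals of 14.96 and 14.59, a difference of -0.37, and Hmox2 had one of -0.11. The receptor Cd163, by which macrophages take up hemoglobin, also had a difference of -0.37. The choice of Hmox1, Hmox2 and Cd163 was made after seeing their values, and in 4 of the 12 genes both signals lay within background.

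Of 5 genes that sense heme, 2 were at least 2-fold lower. Eif2ak1, the kinase that slows globin synthesis in red cell precursors when heme is short, had signals of 14.21 in the control rat and 11.57 in the cocaine rat (-2.65, 6.26-fold lower). Bach1, a repressor released from DNA by heme, was 4.03-fold lower (-2.01), and the nuclear receptor Nr1d1 had a difference of -0.59. In a list of 12 genes of iron uptake and sensing, 7 had signals at least 2-fold lower and 0 at least 2-fold higher, led by the transferrin receptor Tfrc (-4.10), Ncoa4 (-2.77), which releases iron from ferritin, and Steap3 (-2.69, at least 3.70-fold), which reduces iron in endosomes. With the highest background feature as a floor the count was 6, since the transferrin receptor Tfr2 (-1.44, named after its value was seen) was left with 1.13-fold. Of 11 regulators of red cell development 8 were at least 2-fold lower as deposited and 7 with the highest background feature as a floor. Tal1 had a difference of -4.06 and Sox6 one of -3.95 (at least 12.04-fold), while the cocaine signal of Klf1 (3.83, a difference of -4.27) was far within background and left 1.27-fold.

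The differences nearest to the median of the 10 genes, among genes with both signals above background, belonged to Tpx2 (-3.96), Ubac1 (-4.03), Mki67 (-4.05), Tal1 (-4.06) and Cdc25b (-4.06). With 2 arrays, likeness means no more than a difference of about the same size. Tpx2, Mki67 and Cdc25b act in cell division. Of 9 measured genes in a list of cell division, which contains Tpx2 and Mki67, 8 had signals at least 2-fold lower, and the median was -3.30.

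Markers of red cells outside heme synthesis differed in the same direction as the 10 genes. Of 14 measured, 13 had signals at least 2-fold lower, and the median was -5.83. Their summed linear signal, on the log2 scale, was 20.37 in the control rat and 14.77 in the cocaine rat. In the control rat Car2 (18.55) and Hemgn (18.47) made up most of this sum, so it does not describe each marker. In the cocaine rat Epb42 (6.29), Rhag (6.69) and Add2 (6.62) were within the background features. The exception was Tspan33 (-0.49), a tetraspanin found on other blood cells as well. Of the 5 B cell, 8 T cell, 7 macrophage and 6 endothelial genes, none was at least 2-fold lower or higher. Among 6 neutrophil genes 3 were at least 2-fold lower, S100a9 (-1.39), S100a8 (-1.12) and Camp (-1.04, both signals within background), and among 4 platelet genes 2, Ppbp (-2.13) and Gp1ba (-1.27, both signals within background). Of 6 NK cell genes 1 was at least 2-fold higher, Gzma (1.65), and of 6 smooth muscle genes 2, Tagln (1.21) and Acta2 (1.03). The 9 measured genes that every cell uses had a median of 0.22, and none was past 2-fold. What part the shifts of red cell, cell division and other markers have in the values of the 10 heme genes was not tested.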

How the data were processed

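Total RNA from the spleen of 1 rat given cocaine and 1 control rat was extracted by the authors in TRIzol, cleaned on RNeasy columns with a DNase I digestion, and hybridized to Clariom S arrays. The authors deposited 1 log2 signal per feature and array. The sources used here do not give how background was corrected and probes were summarised and normalized, nor the build. The values were read as log2, since ratios printed in the study are powers of 2 of their differences. No further scaling was applied, and 0 columns were left out.

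Of 24834 features, 1646 controls were set aside. Clusters with 1 symbol stood for genes (15049 of 23188 clusters, all matched by Entrez identifier), and for 10 symbols with several clusters the one with the highest mean signal was used. The call was a difference of 2-fold, and no test could be run. A signal under the highest background feature was raised to it for a lower bound. Named genes were all members and their relatives, the 3 largest differences of each related list, any past 2-fold against their list, and the 5 nearest to the members' median. Others are marked as named after their values were seen. Members and lists were chosen with earlier results of these data known.

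Alternatives were 5 scalings (3 centrings, quantile normalization, and loess with a span of 0.3), a filter and a floor on low signals, the background floor, the mean over clusters, and thresholds of 1.5-fold and 4-fold. A floor at the 95th percentile of the negative controls was added after the data were seen. The scalings were tried on simulated data with equal numbers of raised and lowered genes. In the real data more genes were lower than higher, a case that the simulation did not cover. Scripts ran in python 3.11.15 with pandas 2.3.3, numpy 2.4.6, statsmodels 0.14.6 and matplotlib 3.10.9.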

Additional observations from a re-analysis of the deposited data

How the results depend on the processing

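All 10 genes stayed lower in the cocaine rat and past 2-fold under the 9 alternatives of scaling, filter, floor at the background features or the 25th percentile, or choice of cluster. Of these 90 values 38 repeat the deposited ones, since each gene has 1 cluster and most signals lie above the floors, so they say nothing of stability. In the other 52, the fold moved by over 1.5 times once, for Ppox, from 5.51-fold to 3.54-fold with the highest background feature as a floor. With the 95th percentile of the negative controls as a floor, chosen after the data were seen, 5 of the 10 genes were past 2-fold with a median of -1.30, and 118 of all named genes were lower and 30 higher. Under the 9 alternatives the median of the 10 genes lay between -4.07 (loess) and -3.89 (75th percentile centring), while the median of all genes moved from 0.04 to -0.02 and 0.13. At 4-fold, Slc25a38 was not counted. Of all named genes, 748 were at least 2-fold lower and 343 higher. At 1.5-fold these counts were 1765 and 1748, and at 4-fold 246 and 5. The count of higher genes was 222 with the filter at the array median and 147 with the floor at the highest background feature. The share of lower genes among those past 2-fold was 68.6% as deposited, 56.3% with 75th percentile centring, 57.7% with centring on clusters above the median of both arrays, 64.9% with quantile normalization, 75.4% with loess or the filter, and 79.0% with the highest background feature as a floor. Leaving out a replicate was not possible with 1 array per group. No paired analysis was possible because each group holds 1 array. The background features limit the values of Uros and Ppox. A floor of 12.18 from the negative controls would limit those of all but Alas2, but it also lies above all 8 T cell markers.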

Other observations

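Genes of proteins that use heme differed in both directions. Of 20 measured genes of heme-using enzymes and cytochromes, 3 were at least 2-fold lower and 2 at least 2-fold higher, with a median difference of -0.07, and in 7 both signals were within the background features. Catalase (Cat), which removes hydrogen peroxide and is abundant in red cells, had signals of 14.92 in the control rat and 11.65 in the cocaine rat (-3.27, 9.63-fold lower), and Cyb5a, cytochrome b5, had signals of 11.63 and 9.71 (-1.92). Cyp51, an enzyme of cholesterol synthesis, was 2.40-fold higher, from 8.77 to 10.03. The subunits of the heme-containing nitric oxide receptor went opposite ways, with signals of 9.58 and 10.66 for Gucy1a1 (1.08) and of 9.90 and 8.84 for Gucy1b1 (-1.06). Gucy1b1 was named after its value was seen. Both lie close to 2-fold, and with 1 array per group their difference could not be tested.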
